A study of Mus musculus with 16 samples.

Results

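The 5 genes described here encode the mouse receptors that bind the Fc end of IgG antibodies and the adaptor that most of them signal through. They are Fcgr1, Fcgr3 and Fcgr4, whose proteins are activating receptors, Fcgr2b, whose protein is the inhibitory receptor, and Fcer1g, which encodes the common gamma chain. They were chosen by gene symbol, and all 5 were found among the 18929 genes of the expression table. Each was at 0.5 FPKM or more in 16 of 16 tumors, so all 5 were tested. FPKM scales sequenced fragments to the length of the transcript and to the fragments mapped, so levels of different genes can be set side by side.

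RNA was sequenced from 16 B16F10 tumors, 4 in each of 4 groups. The B16F10 cells, a melanoma line of C57BL/6 origin, had been placed in the right side of the abdomen of C57BL/6 females aged 7 to 8 weeks. From a tumor volume of about 50 cubic millimeters the mice were injected intraperitoneally for 9 to 11 days with corn oil and an IgG isotype control (vehicle), a PD1 mAb (anti-PD1), α-ketoglutarate at 100 mg/kg (α-KG), or both (α-KG + anti-PD1, the combination). Each value is from whole tumor tissue of a line grown in a host with an intact immune system. PD1 mAb and the isotype control are themselves IgG antibodies. Melanocyte markers, which check the labelled line, were present in every tumor and summed to 7850 to 10600 FPKM. The study's methods describe the tumors of a group as independent samples. Whether mice given α-KG alone also received the isotype control is not given in the sources used here.

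Activating Fc gamma receptors bind antibody-coated cells or immune complexes and pass the signal on through an immunoreceptor tyrosine-based activation motif, which in mice is carried by the common gamma chain. Src-family kinases phosphorylate this motif, Syk is recruited, and phagocytosis, an oxidative burst or the release of mediators follows. Fcgr2b carries an inhibitory motif in its own tail, recruits the phosphatase encoded by Inpp5d and dampens activating signals. Macrophages and monocytes can carry all of these receptors, neutrophils mainly Fcgr3, Fcgr4 and Fcgr2b, NK cells Fcgr3, and B cells Fcgr2b as their only classical Fc gamma receptor.

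In build GRCm38 (mm10), 4 of the 5 genes lie within 276 kb of chromosome 1, with Fcgr2b at chr1:170958617-170976547 on the minus strand, Fcgr4 at chr1:171018920-171029761 on the plus strand, Fcgr3 at chr1:171051174-171064935 on the minus strand and Fcer1g at chr1:171229572-171234365 on the minus strand. Fcgr1 lies on chromosome 3, at chr3:96282909-96293969 on the minus strand. Since the members moved together in the tumors, the 200 bases before the RefSeq start of 4 of them are shown, 5′ to 3′ on the strand of the gene. Capitals mark matches on either strand to GAGGAA, which reads TTCCTC on the opposite strand and is the core bound by the myeloid factor PU.1.
Fcgr1, chr3:96293970-96294169: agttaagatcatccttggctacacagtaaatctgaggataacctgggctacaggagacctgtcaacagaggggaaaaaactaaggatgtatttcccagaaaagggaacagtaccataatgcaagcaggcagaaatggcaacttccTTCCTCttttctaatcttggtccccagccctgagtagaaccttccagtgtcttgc
Fcgr3, chr1:171059404-171059603: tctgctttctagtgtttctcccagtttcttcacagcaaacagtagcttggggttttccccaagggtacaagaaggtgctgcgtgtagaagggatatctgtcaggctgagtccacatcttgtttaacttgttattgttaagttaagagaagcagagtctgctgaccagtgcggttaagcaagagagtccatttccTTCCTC
Fcgr4, chr1:171018726-171018925: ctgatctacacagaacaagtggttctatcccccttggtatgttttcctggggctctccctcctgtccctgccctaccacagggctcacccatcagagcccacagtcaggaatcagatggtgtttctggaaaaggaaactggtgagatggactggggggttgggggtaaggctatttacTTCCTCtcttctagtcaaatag
Fcer1g, chr1:171234350-171234549: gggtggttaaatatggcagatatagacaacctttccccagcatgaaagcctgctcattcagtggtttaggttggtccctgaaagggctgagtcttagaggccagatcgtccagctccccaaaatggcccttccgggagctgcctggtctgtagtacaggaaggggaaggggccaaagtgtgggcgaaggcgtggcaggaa
The window of Fcgr2b overlaps exons of that gene in the GENCODE model and is not printed. The printed windows of Fcgr4 and Fcer1g also end in exon sequence of their own gene, at chr1:171018920-171018925 and chr1:171234350-171234365. GAGGAA was found in 3 of the 5 windows, those of Fcgr1, Fcgr3 and Fcgr4, and not in those of Fcer1g and Fcgr2b, and the Fcgr2b window held no match to any motif searched. Of 27025 mouse promoter windows of the same length, 18.9% hold it. An element like the ISRE of interferon regulatory factors, searched as GAAA followed after any 2 bases by GAAA, was found in Fcgr4 at −73 to −64 from the start and in 2.33% of all windows. TTGCNNAA, which C/EBP factors can bind, was found in Fcgr3 at −28 to −21 and in 7.47% of all windows. No match overlapped another. RefSeq lists 2 starts for Fcgr3 in this build, and the window of the first lies inside the longest GENCODE gene model. These matches describe letters in a window and are not binding sites.

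Fcgr2b and Fcgr3 share coding sequence for their extracellular part, which bears on any comparison of the inhibitory with the activating receptors. Of the 50-base stretches of the longest coding transcript, 166 occurred in both genes, 17.1% of those of Fcgr2b and 22.1% of those of Fcgr3, and none was shared by any other pair of members. The longest identical run has 129 bases, at positions 278 to 406 of the Fcgr2b coding sequence and 263 to 391 of that of Fcgr3:
Shared run: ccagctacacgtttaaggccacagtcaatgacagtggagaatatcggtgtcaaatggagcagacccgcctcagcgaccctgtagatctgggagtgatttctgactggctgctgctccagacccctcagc
How the authors' counting placed reads from such stretches is not given in the sources used here, so the split between Fcgr2b and Fcgr3 is uncertain to that extent. No such shared coding stretch was found for Fcgr1, Fcgr4 and Fcer1g. Their untranslated parts and stretches that are nearly but not fully identical were not searched.

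The tumors differed in more than these genes. FPKM sums were 514180 to 527812 in the combination tumors and 549740 to 654772 in the others, and hemoglobin genes made up 2.09% to 2.23% of the sum in the former and 4.23% to 22.2% in the latter. The median log2 difference of all 12850 genes tested was 0.15 for the combination against vehicle, −0.04 for α-KG and 0.03 for anti-PD1. Under quantile normalization the split of calls for the combination against vehicle turned from 4479 higher and 1348 lower to 2241 higher and 3994 lower, for α-KG against vehicle from 1080 and 968 to 1039 and 1644, for the combination against anti-PD1 from 1819 and 168 to 721 and 1082, and against α-KG from 4086 and 832 to 2023 and 2020. For the interaction it went from 1027 and 402 to 569 and 559. Marker genes of macrophages summed to 135 to 619 FPKM in vehicle, 642 to 1120 with anti-PD1, 810 to 1190 with α-KG and 936 to 2460 in combination tumors. In bulk tissue, fewer cells of a type and less RNA per cell cannot be told apart.

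All 5 genes were higher in combination than in vehicle tumors, and in α-KG than in vehicle tumors, by 3.59-fold to 8.46-fold, and in both comparisons the 4 treated tumors lay above the 4 vehicle tumors for every member. Fcgr4 rose most with the combination, and Fcgr3 and Fcer1g rose most with α-KG alone. In anti-PD1 tumors the fitted levels were 2.51-fold to 3.69-fold those of vehicle, but no member passed the threshold. The inhibitory Fcgr2b rose beside the activating receptors in both comparisons. The fitted scale is log2(FPKM + 1), so folds of genes with low levels are understated, and adjusted p is from limma over all genes tested.

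**Figure D1:**
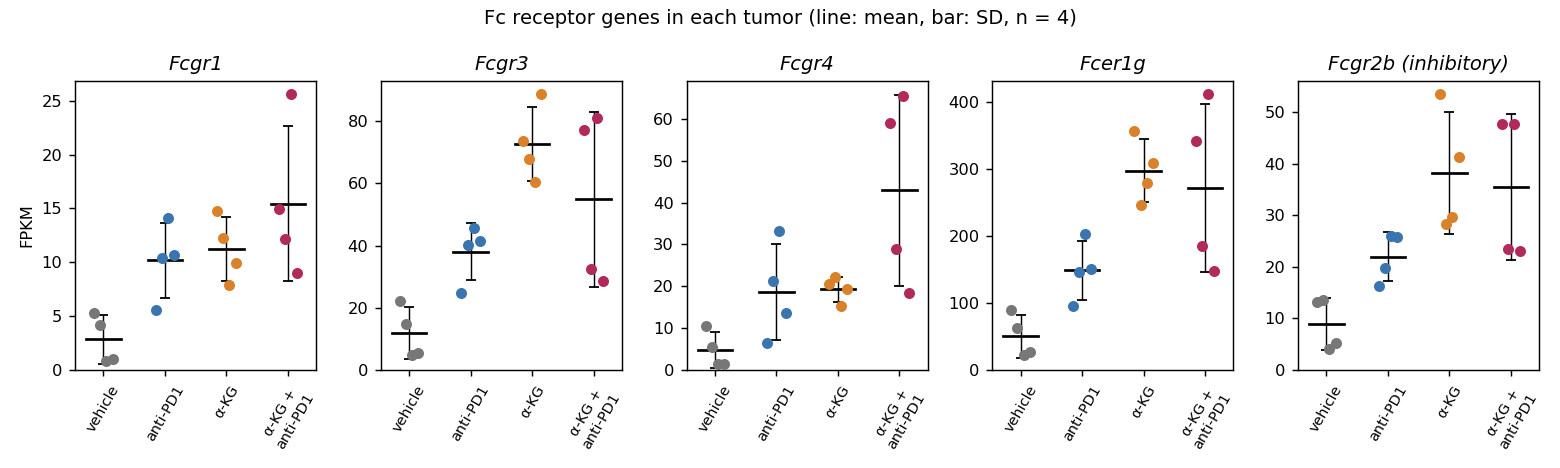
FPKM (y axis, linear and different for each gene) of each Fc receptor gene in 16 tumors by treatment group (x axis), with each point a tumor, the line the mean and the bar the SD of 4 tumors. Every α-KG and α-KG + anti-PD1 tumor lies above every vehicle tumor in all 5 panels, and the α-KG + anti-PD1 tumors spread from 28.7 to 80.85 FPKM for Fcgr3 while the α-KG tumors stay between 60.38 and 88.6.

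Fcgr1 encodes the only high-affinity IgG receptor of the family. Its level was 5.32, 4.18, 0.86 and 1.0 FPKM in the vehicle tumors and 5.54, 10.38, 14.07 and 10.69 in the anti-PD1 tumors. It was 14.75, 12.25, 7.89 and 9.89 FPKM with α-KG and 14.98, 12.2, 25.57 and 8.96 with the combination. The vehicle tumors fell into a higher and a lower pair, and the 3 treated groups overlapped each other. Against vehicle, Fcgr1 rose by 2.21 ± 0.39 on the log2 scale (SE, adjusted p = 0.000726) with the combination and by 1.84 ± 0.39 (adjusted p = 0.00482) with α-KG. Fcgr1 was the lowest of the 5 in group means, at 2.84 ± 2.25 FPKM in vehicle and 15.4 ± 7.2 in combination tumors (SD, n = 4).

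Fcgr3 encodes a low-affinity activating receptor and was the most abundant of the 4 receptors. Its level was 22.32, 14.88, 4.78 and 5.4 FPKM in vehicle and 24.64, 40.17, 45.77 and 41.42 in anti-PD1 tumors. It was 73.57, 67.88, 60.38 and 88.6 FPKM with α-KG and 77.12, 32.51, 80.85 and 28.7 with the combination. The α-KG tumors all lay above the anti-PD1 tumors, while the combination tumors split into a high and a low pair, the low pair within the range of anti-PD1 alone. The split was not particular to Fcgr3. The mean log2(FPKM + 1) of leukocyte markers was 6.27 and 6.25 in the same high pair and 4.89 and 4.44 in the low pair. A link between them was not tested. Fcgr3 rose by 2.75 ± 0.42 (adjusted p = 0.000302) with α-KG and by 2.21 ± 0.42 (adjusted p = 0.001) with the combination. Between those 2 groups the difference was −0.54 (95% interval −1.42 to 0.35, adjusted p = 0.325).

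Fcgr4 encodes the activating receptor that binds mouse IgG2a and IgG2b best. Its level was 10.55, 5.47, 1.44 and 1.47 FPKM in vehicle and 6.51, 21.36, 33.23 and 13.58 in anti-PD1 tumors. It was 20.51, 22.24, 15.23 and 19.35 FPKM with α-KG and 58.94, 28.85, 65.51 and 18.36 with the combination. The α-KG tumors lay close together, and 3 of the 4 combination tumors lay above all of them. Fcgr4 rose by 3.08 ± 0.53 (adjusted p = 0.000601) with the combination and by 2.13 ± 0.53 (adjusted p = 0.0121) with α-KG. Between those 2 groups the difference was 0.95 (95% interval −0.17 to 2.07, adjusted p = 0.166).

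Fcgr2b encodes the inhibitory receptor. Its level was 13.13, 13.58, 4.09 and 5.24 FPKM in vehicle and 16.3, 19.86, 26.1 and 25.76 in anti-PD1 tumors. It was 53.6, 28.34, 29.62 and 41.28 FPKM with α-KG and 47.71, 23.41, 47.75 and 23.03 with the combination. As for Fcgr3, all α-KG tumors lay above all anti-PD1 tumors and the combination tumors formed a high and a low pair. Fcgr2b rose by 2.08 ± 0.35 (adjusted p = 0.000738) with α-KG and by 1.93 ± 0.35 (adjusted p = 0.000766) with the combination. Between those 2 groups the difference was −0.14 (95% interval −0.88 to 0.6, adjusted p = 0.771), and it was 0.08 when the tumors were rescaled to the same sum.

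Fcer1g encodes the gamma chain itself and ranked 379 of 18929 genes by mean level. Its level was 90.04, 62.85, 21.75 and 26.81 FPKM in vehicle and 95.37, 145.8, 202.79 and 151.16 in anti-PD1 tumors. It was 356.03, 245.4, 279.11 and 308.25 FPKM with α-KG and 341.06, 184.36, 411.37 and 147.77 with the combination. The lowest α-KG tumor lay above the highest anti-PD1 tumor. Fcer1g rose by 2.75 ± 0.4 (adjusted p = 0.000209) with α-KG and by 2.51 ± 0.4 (adjusted p = 0.000476) with the combination. Its level was 2.03 to 3.41 times the summed level of the 3 activating receptors across the 16 tumors. That sum leaves out other receptors that use the same chain, which are described below.

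With the combination, 5 of 5 members passed the test as higher, where 34.9% of all genes tested did, and 5 of 5 had no overlap with vehicle, where 28.2% of genes did. With α-KG, 5 of 5 passed, where 8.4% of all genes did, and 5 of 5 did not overlap, where 10.1% of genes did. With anti-PD1, 0 of 5 passed in limma, where 0.467% of genes did, and 5 of 5 were higher at an unadjusted p under 0.05, where 9.98% of genes were. In that comparison 4 members did not overlap with vehicle, against 5% of genes, and Fcgr4 overlapped. The adjusted p of the members with anti-PD1 was 0.0551 for Fcgr3, 0.0571 for Fcer1g, 0.0579 for Fcgr1, 0.0756 for Fcgr2b and 0.0925 for Fcgr4. Without vehicle replicate 1, the vehicle tumor with the highest Fcgr1, Fcgr3, Fcgr4 and Fcer1g, 5 members passed, where 4.12% of all genes were called higher. With a pseudocount of 0.1 or 0.5, 3 did, where 1.81% and 1.01% of genes were called higher. The median difference over the members was 2.21, 2.13 and 1.72 in the 3 comparisons, beside the medians of all genes given above.

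Among treated groups, no member passed the test. Against anti-PD1, the combination gave differences of 0.52 for Fcgr1, 0.6 for Fcgr2b, 0.4 for Fcgr3, 0.79 for Fcer1g and 1.2 for Fcgr4 (adjusted p = 0.124 for Fcgr4, whose unadjusted p of 0.0381 was the only one under 0.05), where 14.2% of genes were called higher and 29.1% were higher at unadjusted p. Against α-KG, 0 of 5 passed at adjusted or unadjusted p, where 31.8% of genes were called higher and 6.47% lower. Between α-KG and anti-PD1, Fcgr2b, Fcgr3 and Fcer1g did not overlap, as did 5.41% of genes, with differences of 0.75, 0.94 and 1.03, unadjusted p under 0.05 and adjusted p of 0.324, 0.302 and 0.235 (2.8% of genes were called higher). At unadjusted p 6.85% of genes were higher. In a fit of those 2 groups alone 2 members passed, where 3.32% of genes were called higher.

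**Figure D2:**
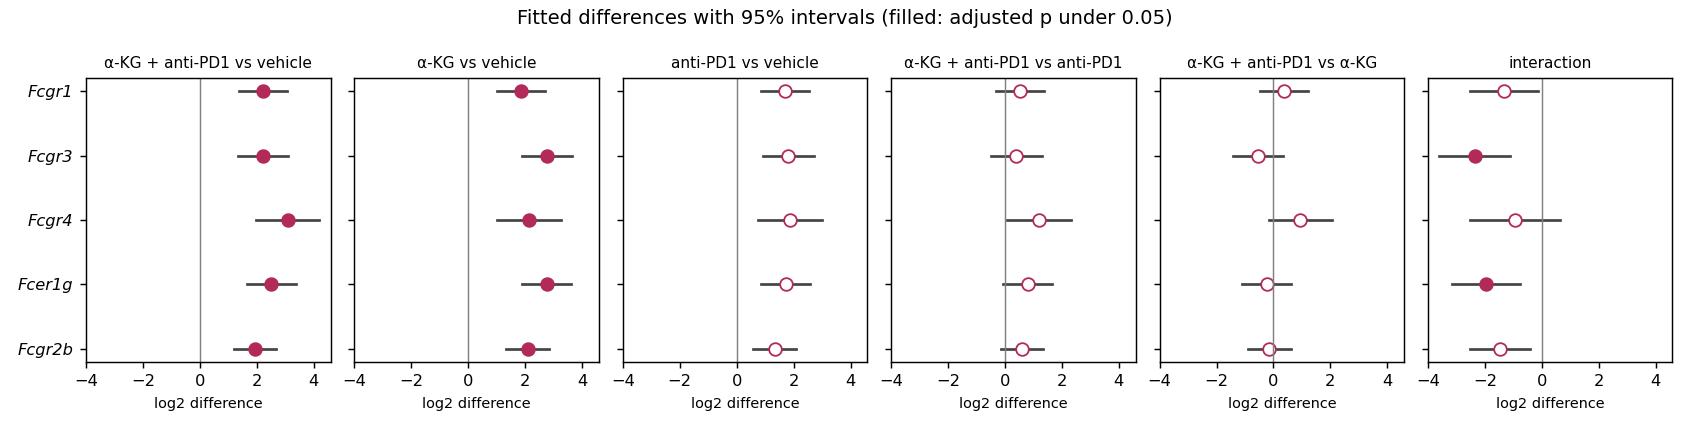
Fitted log2 differences in FPKM + 1 (x axis) of each Fc receptor gene (y axis) in 5 comparisons and for the interaction, with lines for 95% intervals and filled points where adjusted p passed 0.05. All 5 points are filled in the panels of α-KG + anti-PD1 and α-KG against vehicle, none in the 3 other comparisons, and Fcgr3 (−2.35) and Fcer1g (−1.97) are filled for the interaction.

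The interaction (the anti-PD1 effect in mice given α-KG, minus that in mice not given it) was negative for all 5 members on the log2 scale. The sign depends on that scale for Fcgr4 alone. Its means were 4.73 FPKM in vehicle, 18.7 with anti-PD1, 19.3 with α-KG and 42.9 with the combination. In FPKM its rise with both agents thus exceeded the summed rises with each. The interaction passed for Fcgr3, at −2.35 (95% interval −3.61 to −1.1, adjusted p = 0.0217), and for Fcer1g, at −1.97 (−3.17 to −0.76, adjusted p = 0.0381), where 3.13% of all genes were called lower. It was −1.47 for Fcgr2b (adjusted p = 0.0634), −1.32 for Fcgr1 (adjusted p = 0.127) and −0.93 for Fcgr4 (adjusted p = 0.419). The differences with both agents against vehicle were thus smaller than the sum of those with each agent alone for Fcgr3 and Fcer1g. The call for Fcer1g was lost when any of 9 of the 16 tumors was left out or with no filter on low values (adjusted p = 0.0649), and that for Fcgr3 was kept throughout (highest adjusted p = 0.0486).

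The activating receptors were then set against Fcgr2b within each tumor, a ratio that no scaling of tumors can move. The Fcgr3 to Fcgr2b ratio was above 1 in every tumor, from 1.03 to 1.7 in vehicle, 1.51 to 2.02 with anti-PD1, 1.37 to 2.4 with α-KG and 1.25 to 1.69 in combination tumors. The Fcgr1 to Fcgr2b ratio was 0.191 to 0.405 in vehicle, 0.34 to 0.539 with anti-PD1, 0.24 to 0.432 with α-KG and 0.314 to 0.535 in combination tumors. Both sets of ranges overlapped between all groups. The Fcgr4 to Fcgr2b ratio was 0.281 to 0.804 in vehicle, 0.399 to 1.27 with anti-PD1, 0.383 to 0.785 with α-KG and 0.797 to 1.37 in combination tumors. All 4 combination tumors had a higher Fcgr4 to Fcgr2b ratio than all 4 α-KG tumors, by 2.19-fold (1.13 on the log2 scale, exact two-sided permutation p = 0.0286, adjusted p = 0.22). That p is the smallest that 4 against 4 tumors can give. Of 18 such tests, 1 had an unadjusted p under 0.05 and 0 passed after adjustment over the 18. Since no p could be lower, many of the 18 would have had to reach that floor for any to pass. The 0 therefore does not show that the ratios were unchanged. The difference in the Fcgr4 ratio between the combination and vehicle was 1.43 (exact permutation p = 0.0571, adjusted p = 0.22).

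**Figure D3:**
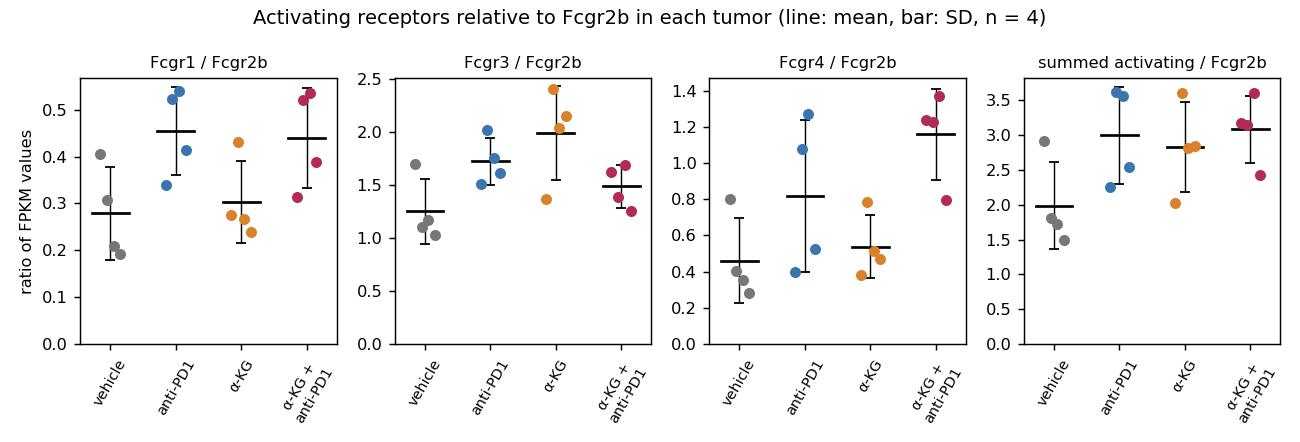
Ratio of FPKM values (y axis, linear) of each activating receptor, and of their sum, to Fcgr2b in 16 tumors by group (x axis), with each point a tumor, the line the mean and the bar the SD of 4 tumors. In the Fcgr4 panel the α-KG + anti-PD1 tumors (0.797 to 1.37) lie above the α-KG tumors (0.383 to 0.785), and the ranges of the other panels overlap between these groups.

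Summed over Fcgr1, Fcgr3 and Fcgr4, the activating level was 1.5 to 2.91 times that of Fcgr2b in vehicle, 2.25 to 3.62 with anti-PD1, 2.03 to 3.61 with α-KG and 2.43 to 3.6 in combination tumors. The 3 treated groups differed from each other by 0.06, 0.14 and −0.08 on the log2 scale, within the pooled SD of 0.29 to 0.34, and from vehicle by 0.67, 0.61 and 0.53. The share of each receptor in the pool was then compared. Fcgr4 made up 23.2% to 29.8% of the summed level of the 4 receptors in combination tumors and 12.2% to 17% in α-KG tumors, and Fcgr3 33.5% to 38.8% and 45.3% to 55.7%. In vehicle tumors Fcgr4 made up 11.2% to 20.6% and Fcgr3 39% to 43.5%. In anti-PD1 tumors Fcgr4 made up 12.3% to 27.9% and Fcgr3 38.4% to 46.5%, overlapping both the combination and the α-KG tumors. The ranges of the combination and α-KG tumors did not overlap for either share, which is given as a description.

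Markers of cells that can carry these receptors were read in the same tumors. Most macrophage and monocyte markers were called higher both with the combination and with α-KG, NK cell markers with the combination and not with α-KG, and B cell markers with neither. Of 10 macrophage markers, 10 were higher with the combination, 6 with α-KG and 3 with anti-PD1 against vehicle. Lyz2, which encodes lysozyme, averaged 77.4 FPKM in vehicle, 270.0 with anti-PD1, 380.0 with α-KG and 538.0 in combination tumors. C1qc and C1qa averaged 150.0 and 139.0 FPKM with anti-PD1, 112.0 and 107.0 with α-KG, and 291.0 and 299.0 with the combination. Neither was called with α-KG against vehicle (limma, adjusted p = 0.0865 and 0.072). Both were higher in combination than in α-KG tumors, by 1.32 and 1.42 (adjusted p = 0.0295 and 0.0273). Cd68 was called higher with α-KG against vehicle, by 1.8 (adjusted p = 0.00203). Csf1r, the receptor for the macrophage growth factor CSF1, was 1.74 to 11.1 FPKM in vehicle, 11.5 to 19.3 with anti-PD1, 21.8 to 27.3 with α-KG and 16.7 to 50.8 in combination tumors. Neutrophil markers summed to 1090 to 2890 FPKM in α-KG tumors and to at most 115 in any other tumor. Of the 8 tested among 10 listed, 8 were higher with α-KG and 2 with the combination against vehicle. Ly6g, the defining one, was 1.57 to 9.16 FPKM in α-KG tumors and at most 0.34 elsewhere. It reached the filter of 0.5 FPKM in 4 tumors only through the α-KG group, so its call there is no independent support. In every marker list a gene could be tested through 1 group alone. Monocyte markers were higher for 5 of 7 with α-KG and for 6 of 7 with the combination.

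NK cell markers were higher for 8 of 8 tested with the combination and for 0 of 8 with α-KG, where limma gave 0 of 8 at unadjusted p under 0.05 as well. Their sum was 0.32 to 4.57 FPKM in vehicle, 4.8 to 23.8 with anti-PD1, 2.82 to 9.71 with α-KG and 13.4 to 149 in combination tumors. In combination tumors Prf1, Gzma, Klrd1 and Klrk1 averaged 31.9, 16.6, 12.4 and 8.09 FPKM. Ncr1 and Klrb1c had medians of 1.58 and 2.0 FPKM there. The part of T cells in this sum was not tested. B cell markers, of cells whose classical receptor is Fcgr2b, were called by limma in 0 of 3 tested in each comparison with vehicle, and 1 had an unadjusted p under 0.05, with α-KG. Ms4a1, which encodes a B cell surface protein, was at most 0.46 FPKM in all tumors but 1 α-KG tumor at 2.39. Mast cell and basophil markers, of cells that use Fcer1g with the IgE receptor, were near 0, with Fcer1a at most 0.17 and Ms4a2 at most 0.13 FPKM. Other lists bear on the makeup of the tissue. Leukocyte markers were higher for 8 of 8 tested with the combination and with α-KG, and for 1 with anti-PD1. T cell markers were higher for 10 of 10 with the combination and 0 of 10 with α-KG (limma, 0 at unadjusted p under 0.05), and dendritic cell markers for 7 of 7 and 2 of 7. Of 7 melanocyte markers, 2 were lower with the combination and 1 higher with α-KG. Of 2 endothelial markers tested, 2 were higher with the combination and 1 with α-KG. Fibroblast markers gave 0 calls of 6 in limma in each comparison with vehicle, and 0 at unadjusted p under 0.05. Of the plasma cell list, Xbp1, Sdc1, Prdm1 and Mzb1 were tested and no immunoglobulin gene was. With the combination Prdm1 and Mzb1 were higher and Sdc1 lower, and with α-KG Prdm1 and Xbp1 were higher. The part of macrophages, monocytes, neutrophils and NK cells in the levels of the 5 genes was not tested.

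Set against the mean of the macrophage markers in the same tumor, the members parted. Fcgr1 lay 1.72 to 2.41 log2 units under the macrophage mean in all 16 tumors, with overlapping ranges in the 4 groups. Fcgr3 lay 0.48 to 1.19 above it in α-KG tumors and between −0.46 and 0.09 in all others. Fcer1g lay 2.34 to 2.97 above it in α-KG tumors and 1.6 to 2.12 in all others. Fcgr4 was at −1.08 to −0.5 in the combination, −1.32 to −0.95 in α-KG, −1.88 to −0.54 in anti-PD1 and −1.75 to −1.24 in vehicle tumors. Fcgr2b was at −0.73 to 0.1 in α-KG tumors and −0.96 to −0.22 elsewhere. These differences carry no test. The macrophage mean is itself mixed, with 6 of its 10 markers called higher with α-KG against vehicle. Between α-KG and anti-PD1, C1qa and C1qc stood at −0.37 and −0.43, and Lyz2 and Cd68 at 0.48 and 0.23, none of them called. The part of such markers in the levels relative to this mean was not tested.

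**Figure D4:**
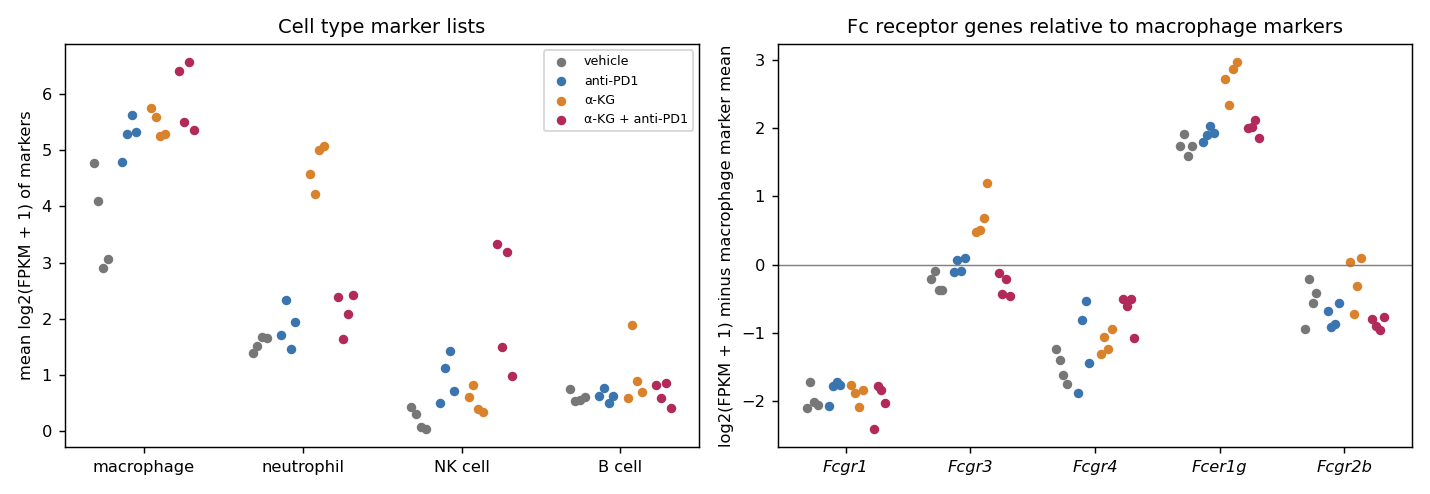
Left, mean log2(FPKM + 1) (y axis) of 4 marker lists in 16 tumors, and right, log2(FPKM + 1) of each Fc receptor gene minus the mean of the macrophage markers, with each point a tumor and colors for the groups. On the right Fcgr3 (0.48 to 1.19) and Fcer1g (2.34 to 2.97) stand above the other groups in α-KG tumors, and Fcgr1 is level. On the left the neutrophil list is also highest in α-KG tumors, and a link between these patterns was not tested.

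Genes that act with the receptors were described by lists. Of 21 tested genes of activating Fc receptor signaling, 20 were higher with the combination, 17 with α-KG and 0 with anti-PD1 (16 at unadjusted limma p under 0.05), with median differences of 1.73, 1.18 and 1.01. Rac2, a GTPase of phagocytes needed for the oxidative burst, rose by 2.9 (adjusted p = 0.000422) with the combination and by 2.98 (adjusted p = 0.000181) with α-KG. Prkcd, a kinase acting after phospholipase C, rose by 1.49 and 0.89. Grb2, an adaptor present in most cells, rose by 0.36 with the combination, and Bcl10 differed by −0.06 (adjusted p = 0.712).

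Of 9 genes of inhibitory signaling, 8 were higher with the combination, 5 with α-KG and 0 with anti-PD1 (5 at unadjusted limma p under 0.05), with medians of 0.82, 0.8 and 0.29. Ptpn6, the phosphatase SHP-1, rose by 1.21 and 0.8 with the combination and α-KG. Csk, a kinase that restrains Src-family kinases, rose by 0.41 with the combination and stood at 0.07 (adjusted p = 0.579) with α-KG. Dok1, an adaptor of inhibitory receptors, rose by 0.5 with the combination, and Ptpn11 stood at 0.17 (adjusted p = 0.0979). The shares 34.9% and 8.4% of all genes given above are the background of these counts. Leukocyte markers were higher for 8 of 8 in both comparisons, so such counts are not particular to Fc receptor signaling. The part of leukocyte content in them was not tested.

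Among other receptors that use the same gamma chain, the C-type lectins Clec4e, Clec4d and Clec4n had their highest means with α-KG alone. All 7 receptors tested were higher with the combination and 6 with α-KG, and between these groups 4 were lower and 1 higher in the combination. Clec4e, the receptor Mincle, averaged 0.917 FPKM in vehicle, 3.77 with anti-PD1, 66.2 with α-KG and 6.71 in combination tumors. Clec4d averaged 94.9 FPKM with α-KG and 11.5 in combination tumors, a difference of −2.89 (adjusted p = 3.2e-05). Clec4n, the receptor Dectin-2, averaged 34.4 and 13.2 FPKM. The members did not pass in this comparison. The neutrophil markers moved with these lectins, lower in 8 of 8 tested, with Ly6g tested only through its α-KG values.

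Among ITAM adaptors, 7 of 9 were higher with the combination, 3 with α-KG and 1 with anti-PD1. Tyrobp, the myeloid adaptor DAP12, averaged 26 FPKM in vehicle, 80.1 with anti-PD1, 189.0 with α-KG and 156.0 in combination tumors, the order of Fcer1g. Cd3g, of the T cell receptor complex, averaged 0.752, 4.73, 3.65 and 32.8 FPKM in the same order of groups. Of the NADPH oxidase and phagocytosis genes, 9 of 12 were higher with the combination, 8 with α-KG and 1 with anti-PD1. Ctss, a lysosomal protease, averaged 34.7 FPKM in vehicle and 295.0 in combination tumors, and Lamp1, a lysosomal membrane protein of most cells, 228 and 249 (adjusted p = 0.163).

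**Figure D5:**
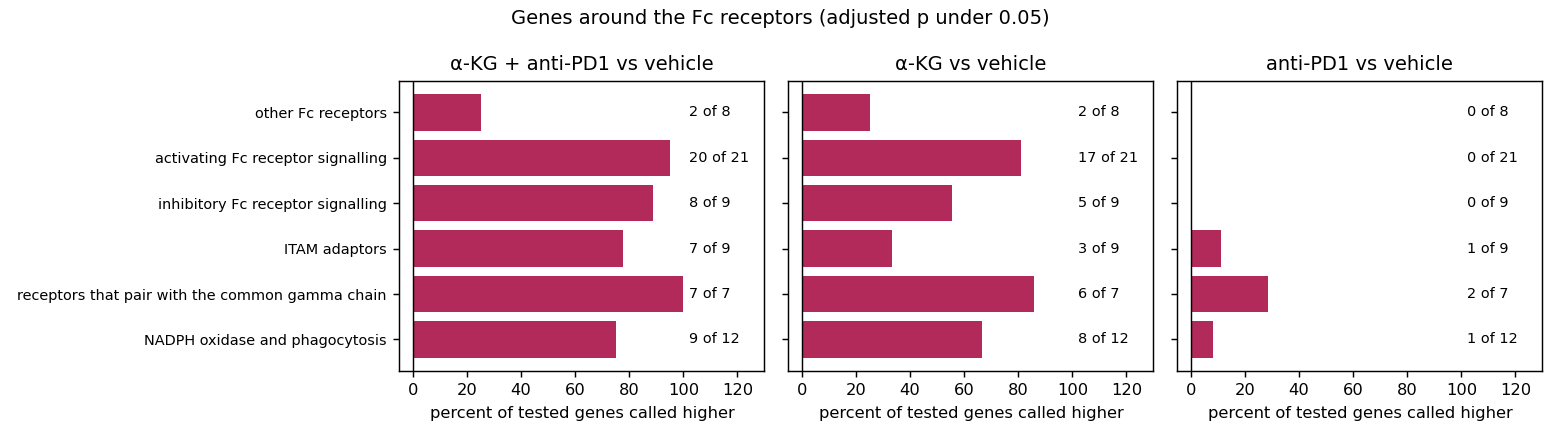
Percent of the tested genes of 6 lists (y axis) called higher at adjusted p under 0.05 (x axis) in each treated group against vehicle, with the counts beside the bars. Activating signaling reaches 20 of 21 with α-KG + anti-PD1 and 17 of 21 with α-KG, and no list passes 2 genes with anti-PD1.

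Of 8 tested other Fc receptors, 2 were higher with the combination and 2 with α-KG. Fcgrt, the neonatal receptor that recycles IgG, averaged 13.6 FPKM in vehicle and 18.7 in combination tumors (difference 0.45, adjusted p = 0.0601). Trim21, a cytosolic IgG receptor, rose by 1.72 (adjusted p = 0.00125) with the combination and stood at 0.32 (adjusted p = 0.579) with α-KG. Fcrls rose by 1.35 with α-KG and differed by −1.49 between the combination and α-KG tumors (adjusted p = 0.000869). Interferon gamma induced genes, of interest because Fcgr1 and Fcgr4 are known interferon targets, were higher for 13 of 13 tested with the combination, 1 of 13 with α-KG and 0 of 13 with anti-PD1 (10 at unadjusted limma p under 0.05). All 5 members rose in both of the first 2 comparisons, Fcgr1 by 2.21 and 1.84 and Fcgr4 by 3.08 and 2.13. The part of interferon in these levels was not tested.

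The 5 genes most like each member over the 16 tumors were ranked by correlation of log2 levels. The highest Pearson's r was 0.985 with C3ar1 for Fcgr1, 0.984 with Fcer1g for Fcgr2b, 0.993 with Tlr13 for Fcgr3, 0.989 with Itgax for Fcgr4 and 0.994 with Tyrobp for Fcer1g. The next for Fcgr1 were Mpeg1, Cd84, Cd68 and Cfp, for Fcgr2b Tyrobp, Ms4a6d, Pirb and Pid1, and for Fcgr3 Slc15a3, Tyrobp, Fcer1g and Adam8. For Fcgr4 they were Fgl2, Cybb, Ly6e and Mpeg1, and for Fcer1g Spi1, which encodes PU.1, Lcp1, Slc11a1 and Fcgr3. After the 2 tumors farthest from the median were left out, the r of all 25 pairs was 0.931 or more. Fcgr2b had Fcer1g, Tyrobp and Fcgr3 at ranks 1, 2 and 8 of 12849 other genes, and Fcgr1 had Fcgr4 at rank 19. Of the neutrophil markers, S100a8 had an r of 0.479 with Fcgr3 and 0.434 with Fcer1g, and Csf3r of 0.748 and 0.728. For deviations from group means, r was −0.319 and −0.416 for S100a8 and 0.296 and 0.203 for Csf3r. It was 0.964 and 0.973 for Csf1r. These values carry no p, and the tumors share library and group differences.

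Neighbors on the chromosome were read in the same way. Of 7 other protein-coding genes between Fcgr2b and Fcer1g, 4 were tested, Cfap126, Sdhc, Tomm40l and Apoa2. Of these, 0 passed with the combination or with α-KG against vehicle, with median differences of 0.2 and 0.16. The largest was 0.45 for Apoa2 with α-KG (adjusted p = 0.233).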

How the data were processed

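RNA of 16 B16F10 tumors was sequenced for the authors by a sequencing company after oligo-dT capture and second-strand marking with dUTP. The authors deposited 1 table of FPKM values with 18929 genes and 16 columns, all used. The submitters' processing notes name HISAT, Bowtie2 and build mm10, and the program that computed FPKM, the annotation and any scaling between tumors are not given in the sources used here. Low values showed no readable step of 1 fragment (21.5% of 8682 ratios lay within 0.15 of a whole number), so the depth is unknown and no counting interval is given.

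FPKM values were changed to log2(FPKM + 1), and genes reaching 0.5 FPKM in 4 tumors or more, 12850 in all, were fitted with limma 3.58.1 in R 4.3.3, with 1 mean per group over all 16 tumors, eBayes with trend and Benjamini-Hochberg adjustment (threshold 0.05). The fit was tested on simulated data. Ratios to Fcgr2b were compared by exact two-sided permutation of 4 against 4 tumors (70 divisions), adjusted over 18 tests. Python 3.11.15 was used for the rest. Named genes are the 5 members, the 4 genes with the highest mean level of each list, and the 5 genes of highest r with each member. Csf1r, Ly6g, Ms4a1, Fcer1a, Ms4a2, Ncr1 and Klrb1c, which define cell types, and the tested neighbors were named outside this rule, after values were seen. The members and lists were chosen with earlier results of these data known. Gene positions are from GENCODE M21 and promoters from RefSeq, build GRCm38.p6. Alternatives were the pseudocount, filter, scaling of tumors, variance model, groups in the fit, replicate block and each tumor left out.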

Additional observations from a re-analysis of the deposited data

Results flagged for a closer look

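The interaction of α-KG and anti-PD1, a test of whether the anti-PD1 effect differed between mice that were and were not given α-KG, passed for 2 genes. For Fcgr3 the log2 effect in mice given α-KG was lower by a difference of −2.35, and for Fcer1g of −1.97. The call for Fcgr3 was kept in each fit that left out 1 tumor, and that for Fcer1g was lost in 9 of 16 of them, with no filter on low values (adjusted p = 0.0649, limma) and with a replicate block (adjusted p = 0.0551, limma). Of 32 groups of 4 values examined for a tumor far from the others, 0 had one.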

How the results depend on the processing

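All 5 members passed in α-KG + anti-PD1 against vehicle and in α-KG against vehicle under every alternative run, those that left out 1 tumor included. In those runs 2197 to 6294 genes were called higher with α-KG + anti-PD1 and 795 to 1297 with α-KG. The genes tested were 12850, or 18924 with no filter on low values. Against vehicle, the number of members passing with anti-PD1 was 0 in the reported fit. It was 3 with a pseudocount of 0.1 and 3 with 0.5. After quantile normalization it was 2 (77 of all genes called higher), and after centering on tumor medians 3 (134 of all genes). When each tumor was left out it was 0 to 5. It was 5 without vehicle replicate 1 (530 of all genes called higher). Without vehicle replicate 2 (80 of all genes) or anti-PD1 replicate 1 (61 of all genes) it was 1. Between α-KG and anti-PD1 it was 2 in a fit of those 2 groups. For the interaction it was 2 (402 of 12850 genes called lower), and 1 with no filter on low values (357 of 18924 genes). When each tumor was left out it was 1 to 3, where 277 to 497 of 12850 genes were called lower. The replicate numbers do not pair the tumors (correlations of same-numbered tumors −0.642 to 0.411, over 0.1 in 9 of 24 pairs). With a replicate block the interaction passed for 1 member, Fcgr3, where 319 of all genes were called lower. For Fcer1g it gave adjusted p = 0.0551 (limma), and the block changed no other call of a member. The cause of these changes was not tested. Differences near 0 changed sign. For Fcgr2b between α-KG + anti-PD1 and α-KG it was 0.08 after rescaling to the same sum and −0.31 to 0.03 without single tumors, and for Fcer1g −0.48 to 0.01. Between α-KG and anti-PD1 it was −0.15 to 0.58 for Fcgr4 and −0.08 to 0.32 for Fcgr1 without single tumors. The Fcgr1 to Fcgr2b log2 ratio of α-KG against vehicle was −0.23 with 1 FPKM added, and −0.03 to 0.35 without single tumors, and that of α-KG + anti-PD1 against anti-PD1 was −0.19 to 0.1.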
